A study of Mus musculus with 4 samples.

Results

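This account covers the transcripts of haemoglobin, of haem synthesis and of their close partners in the prefrontal cortex of mice that overexpress an acetylcholine-degrading enzyme. The set holds every probe set whose single gene symbol starts with Hba- or Hbb-, or is Alas1, Alas2, Bpgm, Fech, Urod or Hmox1. That gave 12 of the 8251 genes named singly on the array, read by 14 of its 12422 probe sets. The genes were chosen by symbol, with no threshold on a value, but with the transgenic-against-control differences of these arrays known, so the differences below are descriptions and support nothing beyond themselves. Total RNA came from female mice. Controls were of the FVB/N strain, and the transgenic mice overexpressed the synaptic form of the human enzyme, acetylcholinesterase (AChE). Both groups had 2 arrays, and a pool of RNA from 4 mice was put on each. What strain the transgenic mice were bred on, which promoter drives the transgene, and whether blood was washed out of the brains are points on which the sources used here are silent. Whether the pools of a group held different mice is likewise not stated, so a p-value measures the spread between these arrays, and that spread may be technical. No scan date or slide is named, and a batch shared by a whole group cannot be told apart from the genotype.

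Haemoglobin, the oxygen carrier of red cells, is built from alpha and beta globin chains that each hold a haem, an iron-containing porphyrin ring. Haem is made by a chain of enzymes that starts with aminolevulinate synthase. Alas1 encodes the form present in all tissues and Alas2 the form of developing red cells, while ferrochelatase (Fech) inserts the iron at the end of the chain. Young red cells in the circulation still carry globin and Alas2 transcripts, and globin transcripts have also been described in neurons and glia, so either source can contribute to RNA from brain tissue.

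The adult globin genes and Alas2 read clearly higher in the transgenic pools, whereas Alas1, Urod and the haem oxygenase gene Hmox1 did not pass the test. Fech was too dim to be tested. The haem synthesis enzymes Alad and Ppox, which are not part of the set, were called lower. Of the 14 probe sets, 10 of 9 genes were bright enough to be tested, and 3 rose in the transgenic pools (Hba-a1, Hbb-b2 and Alas2), 0 fell and 7 did not pass. Over all 7453 tested probe sets, 5.46% were called higher and 4.56% lower. The calls come from limma with Benjamini-Hochberg adjustment over all tested probe sets and a threshold of 0.05. Unadjusted p-values under 0.05 were reached by the same number, 3, of the 10, against 24.3% of all tested probe sets, so this share is near the background. The groups did not overlap in 7 of the 10 tested probe sets, with 4 higher and 3 lower, but 53.7% of all tested probe sets also had groups that did not overlap (23.8% higher and 29.9% lower). The median log2 change of the 10 was 0.17, against -0.03 over all tested probe sets. In bulk tissue, a change in the number of cells of a type and a change in RNA per cell cannot be told apart.

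**Figure D1:**
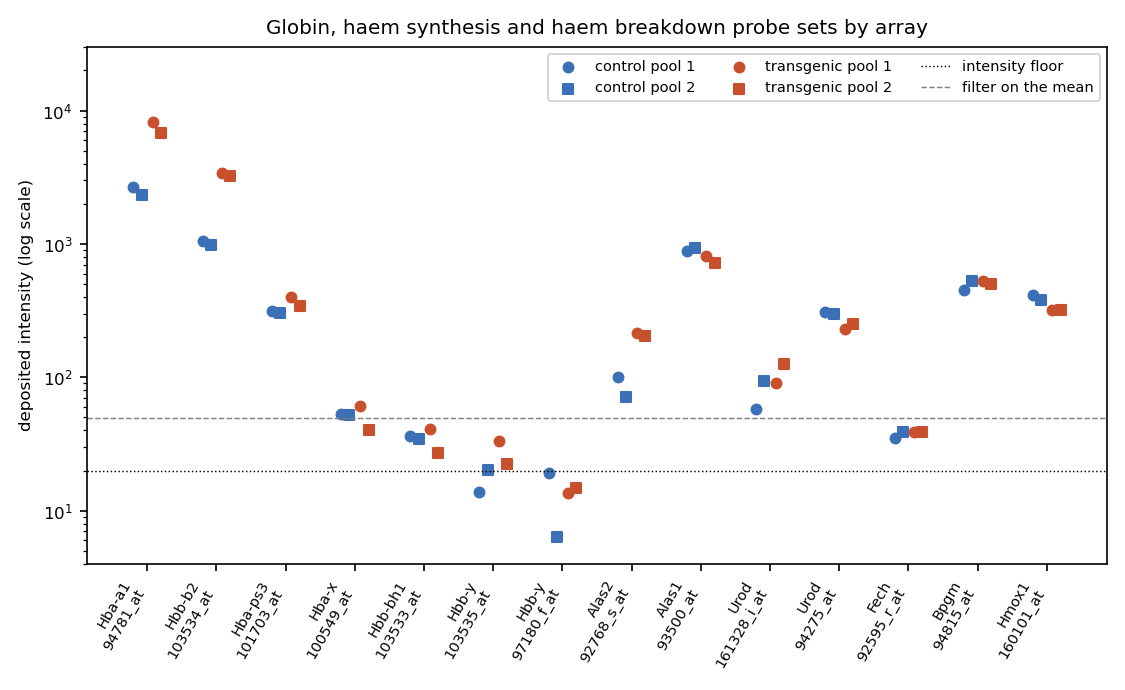
Deposited intensity (log scale) of the 14 probe sets on each array, with control pools in blue and transgenic pools in orange. The dotted line is the intensity floor of 19.675 and the dashed line the filter of 49.4 on the geometric mean of the 4 floored values. Hba-a1, Hbb-b2 and Alas2 are the 3 probe sets whose transgenic pools stand well above both control pools, and the embryonic globins lie at or below about the filter.

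Hba-a1 encodes the adult alpha globin chain. Its probe set (94781_at) read 2678.2 and 2325.0 in controls against 8257.2 and 6740.9 in transgenic pools. Both transgenic pools were high, and the lower of them was 2.52-fold the higher control pool, while the pools within a group differed by 1.15-fold and 1.23-fold. The rise was 2.99-fold (95% interval 2.45 to 3.64; log2 change 1.58 ± 0.13 SE, limma adjusted p = 3.27e-05). Another probe set, 162457_f_at, is listed for both adult alpha genes, Hba-a1 and Hba-a2, and is therefore no evidence for either by itself. It read 776.2 and 751.6 in controls against 2657.9 and 1947.8 in transgenic pools, a 2.98-fold difference (log2 change 1.57 ± 0.15 SE, limma adjusted p = 1.33e-04). The alpha globin signal thus differed by about the same factor at both probe sets. Whether 94781_at reads Hba-a1 alone, as its single symbol implies, was not tested.

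Hbb-b2 encodes an adult beta globin chain. Its probe set (103534_at) read 1053.4 and 982.0 in controls against 3414.7 and 3214.2 in transgenic pools. The lower transgenic pool was 3.05-fold the higher control pool, and pools of a group differed by no more than 1.07-fold. The 3.26-fold rise (95% interval 2.73 to 3.89; log2 change 1.70 ± 0.11 SE, limma adjusted p = 9.99e-06) was the largest of the set. Of the probe sets listed for several adult beta globin genes, 101869_s_at read 4397.9 and 3372.9 in controls against 8578.6 and 7626.1 in transgenic pools. That is a 2.10-fold difference (95% interval 1.70 to 2.59, limma adjusted p = 7.30e-04), and its interval does not reach the fold of Hbb-b2. The other, 160560_at, read 2.1 or less on every array and so carried no usable signal although the same genes are listed for it.

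Alas2 is the red cell form of aminolevulinate synthase. Its probe set (92768_s_at) read 101.2 and 71.4 in controls against 215.6 and 204.2 in transgenic pools. No control pool reached the transgenic pools, the lowest of which was 2.02-fold the highest control pool. Here the spread was wider among the controls, whose pools differed by 1.42-fold. The rise was 2.47-fold (95% interval 1.72 to 3.53; log2 change 1.30 ± 0.23 SE, limma adjusted p = 0.00645). Its interval overlaps those of Hba-a1 and Hbb-b2, and a difference between these rises was not tested. Both control values lay above the filter, so Alas2 was not tested only because it was high in the transgenic pools.

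Rises of this size were not rare on these arrays: 2.16% of tested probe sets had a larger log2 change than Hba-a1 and 2.82% a larger one than Alas2. Leaving out any 1 pool kept Hba-a1 at 1.43 to 1.73 and Hbb-b2 at 1.65 to 1.75 on the log2 scale, both still past the threshold. For Alas2 the log2 change stayed between 1.05 and 1.56, but it missed the threshold without transgenic replicate 1 (adjusted p = 0.0711) or transgenic replicate 2 (0.0703). Without the filter on dim probe sets none of the 3 passed in limma, with adjusted p-values of 0.0505 for Hbb-b2, 0.120 for Hba-a1 and 0.203 for Alas2. In that setting 48 of 12422 probe sets passed and 5 of the 14 described here had an unadjusted p under 0.05, against 15.4% of all probe sets.

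The promoters are shown for Hba-a1 and Alas2, which were called, and for Alas1, which was not. RefSeq's table had no entry for Hbb-b2. The sequences come from RefSeq on mouse assembly GRCm38.p6 (the C57BL/6J genome, not FVB/N). Promoters of 7 of the 12 genes were read. Entries of the set on a single chromosome had been left out beforehand, so the table may hold more of the 12. Each run is the 250 bases before the transcription start, 5′ to 3′ on the gene's strand. Capitals mark AGATAA or TGATAA (core of the site read by GATA factors such as Gata1), CACCC (core of the site read by Klf1), and TATAAA, on either strand. Hba-a1 lies at chr11:32283422-32283671 on the + strand, Alas2 at chrX:150547167-150547416 on the + strand, and the more upstream of the 2 listed Alas1 starts at chr9:106247955-106248204 on the - strand.
Hba-a1: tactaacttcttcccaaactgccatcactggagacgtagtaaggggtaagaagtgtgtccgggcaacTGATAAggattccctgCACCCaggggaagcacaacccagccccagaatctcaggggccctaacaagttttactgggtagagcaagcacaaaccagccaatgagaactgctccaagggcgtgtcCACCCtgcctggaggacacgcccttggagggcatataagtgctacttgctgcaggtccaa
Alas2: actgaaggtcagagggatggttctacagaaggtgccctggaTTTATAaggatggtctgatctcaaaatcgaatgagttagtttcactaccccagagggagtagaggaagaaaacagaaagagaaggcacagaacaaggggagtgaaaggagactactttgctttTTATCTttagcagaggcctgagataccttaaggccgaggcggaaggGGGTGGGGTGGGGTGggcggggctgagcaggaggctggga
Alas1: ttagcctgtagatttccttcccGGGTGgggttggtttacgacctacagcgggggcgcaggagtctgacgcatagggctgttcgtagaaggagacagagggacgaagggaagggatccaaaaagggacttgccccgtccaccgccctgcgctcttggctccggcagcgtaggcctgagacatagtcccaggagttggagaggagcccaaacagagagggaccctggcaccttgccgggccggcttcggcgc
A GATA core stands at position -183 from the start in Hba-a1 and at -86 in Alas2, where it is on the opposite strand. CACCC stands at -167 and -60 in Hba-a1, and on the opposite strand in a run of 3 at -40, -35 and -30 in Alas2. Neither window of Alas1 holds a GATA core. Over the whole window of 300 bases, which reaches 50 bases past the start, 4 of the 7 genes had a GATA core (Hba-a1, Hba-x, Hbb-y and Alas2) and 3 did not (Alas1, Bpgm and Urod). The same letters are in 18.6% of all 32851 windows in the table. CACCC was in the windows of 6 of the 7 genes, Alas1 and Urod included, and is in 57.5% of all windows. The longer CCACACCC and TGAGTCA, the core read by Nfe2, were found in 0 of the 7 genes and in 3.56% and 5.20% of all windows. These matches are letters in a window and say nothing of binding, and the embryonic globins, which share them, were dim here.

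The embryonic globins gave little signal. Hba-x, the zeta chain of embryonic haemoglobin, read 52.7 and 52.5 in controls against 60.6 and 40.6 in transgenic pools, so the transgenic pools lay on both sides of the controls (log2 change -0.08 ± 0.36 SE, limma adjusted p = 0.919). Hbb-bh1, an embryonic beta-like chain, read 36.4 and 34.7 against 41.3 and 27.1 and was too dim to be tested. Hbb-y, another embryonic beta-like gene, had 2 probe sets. One of them (97180_f_at) read at most 19.3, below the floor on all 4 arrays, and the other (103535_at) read 13.7 and 20.2 in controls against 33.2 and 22.2 in transgenic pools. Both lay under the filter, and no fold is given for values this close to the floor. Hba-ps3, an alpha globin pseudogene, was brighter, at 311.7 and 305.4 in controls against 398.7 and 341.3 in transgenic pools. Its groups did not overlap, yet its log2 change of 0.26 (95% interval -0.10 to 0.61, limma adjusted p = 0.365) did not pass and its interval lies below that of Hba-a1.

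Of the haem synthesis enzymes in the set, Alas2 alone was called higher. Alas1, the ubiquitous and haem-repressed first enzyme, read 884.1 and 927.1 in controls against 818.2 and 719.9 in transgenic pools. Both transgenic pools were the lower ones, but the log2 change of -0.24 ± 0.13 SE (95% interval -0.53 to 0.06, limma adjusted p = 0.312) did not pass. The interval excludes a rise of the size seen for Alas2, whose interval starts at 0.79. Urod, which encodes uroporphyrinogen decarboxylase in the middle of the pathway, was read by 2 probe sets that differed in sign. At 94275_at it read 306.8 and 297.8 in controls against 231.9 and 251.1 in transgenic pools (log2 change -0.32 ± 0.16 SE, limma adjusted p = 0.252). The dimmer 161328_i_at read 58.0 and 93.5 against 91.1 and 125.6 (log2 change 0.54 ± 0.31 SE, limma adjusted p = 0.329), with groups that overlapped. Neither passed. Fech read 34.9 and 38.8 in controls against 38.7 and 38.6 in transgenic pools, at its only probe set. All 4 values lay above the floor but under the filter, so Fech was not tested, and its fold was 1.05.

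Other enzymes of the pathway are not part of the set. Of 5 tested probe sets of 4 genes, 0 rose, 2 fell and 3 did not pass in limma. An unadjusted p under 0.05 was reached by 3, all lower, against 24.3% of all tested probe sets in either direction. Their median log2 change was -0.66, and 4 of the 5 lay below 0, against 54.2% of all tested probe sets. Alad, which joins aminolevulinate molecules to porphobilinogen, fell 1.59-fold, from 748.3 and 714.2 to 457.2 and 465.0 (limma adjusted p = 0.0125). Ppox, the mitochondrial oxidase of the next to last step, fell 2.24-fold at 100429_at, from 149.1 and 98.3 to 61.2 and 47.7 (limma adjusted p = 0.0392), while its other probe set was under the floor on every array. Cpox, the preceding oxidase, had a log2 change of -0.70 (limma adjusted p = 0.0658) at 98505_i_at and 0.07 (adjusted p = 0.908) at 98506_r_at. Uros had -0.21 ± 0.15 SE (limma adjusted p = 0.447). Without transgenic replicate 1 or 2 neither fall passed, with adjusted p-values of 0.0638 and 0.0654 for Alad and 0.0869 and 0.183 for Ppox, and Ppox also had 0.236 without control replicate 1.

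**Figure D2:**
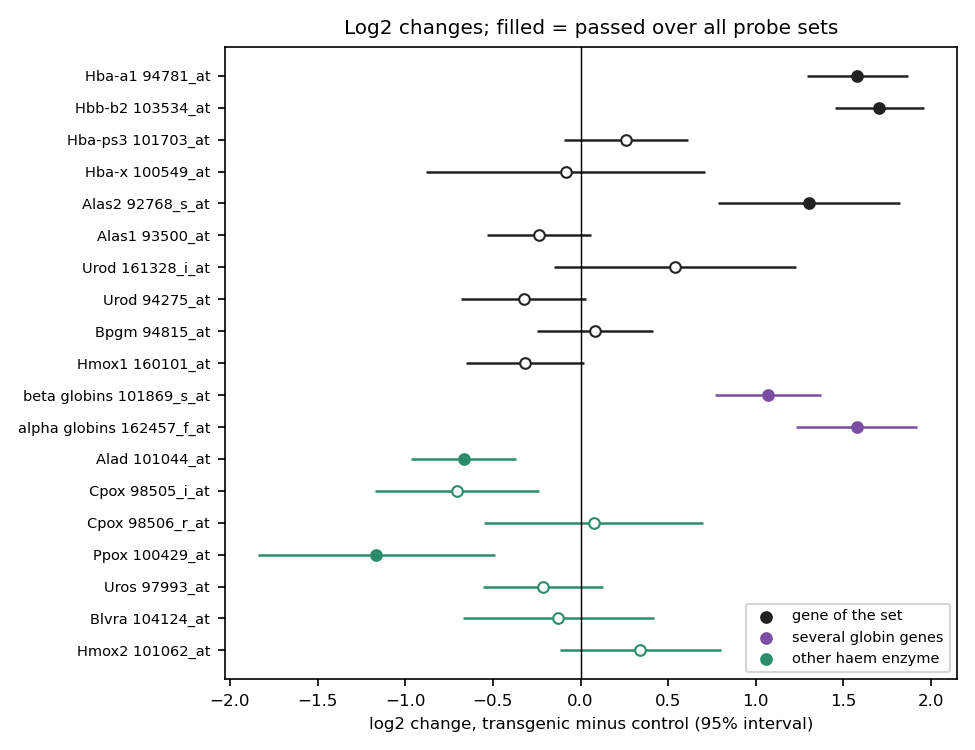
Log2 change, transgenic minus control, with its 95% interval for each tested probe set of the globin and haem genes, of the probe sets listed for several globin genes, and of other haem synthesis and breakdown enzymes. Filled points passed the threshold over all tested probe sets; only adult globin and Alas2 points lie above 1, and the filled points below 0 are Alad and Ppox.

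Bpgm and Hmox1 stand beside the pathway. Bpgm makes the bisphosphoglycerate that lowers the oxygen affinity of haemoglobin in red cells. It read 448.7 and 524.9 in controls against 529.9 and 499.6 in transgenic pools, so the groups overlapped (log2 change 0.08, 95% interval -0.25 to 0.42, limma adjusted p = 0.781). The interval ends well below the rise of any adult globin probe set. In the same branch of glycolysis, 0 of 3 tested probe sets passed in limma and 0 had an unadjusted p under 0.05, among them the bright Pgam1 (log2 change -0.05) and Pgk1 (-0.18). Hmox1 encodes the inducible haem oxygenase, which opens the haem ring and is induced by haem and oxidative stress. It read 417.8 and 381.6 in controls against 321.5 and 319.4 in transgenic pools. Both transgenic pools were lower and close together, but the log2 change of -0.32 ± 0.15 SE (95% interval -0.65 to 0.02, limma adjusted p = 0.233) did not pass. The constitutive Hmox2 had 0.34 and the biliverdin reductase Blvra -0.13, and 0 of these 2 passed in limma, with 0 at an unadjusted p under 0.05. Bach1, a haem-binding repressor of Hmox1, rose 2.24-fold at 94415_at, from 65.2 and 95.5 to 173.1 and 180.3 (limma adjusted p = 0.0162, but 0.0934 and 0.122 without transgenic replicate 1 or 2). Its other probe set was below the floor on every array.

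Genes that handle haem and iron showed no call. Among 9 tested probe sets for transport and scavenging of haem and porphyrins, 0 passed in limma and 1 had an unadjusted p under 0.05. All 9 log2 changes lay below 0, against 54.2% of all tested probe sets, but they reached up to -0.014 (median -0.14, lowest -0.73). Among them were the bright haem-binding membrane protein Pgrmc1 (-0.07) and Lrp1, a receptor for haem bound to haemopexin (-0.14). Among 9 for uptake, storage and regulation of iron, 0 passed in limma and 2 had an unadjusted p under 0.05. The ferritin heavy chain Fth1, the main iron store, had -0.07 and -0.13 at its 2 probe sets, and the transferrin receptor Tfrc had -0.16 at 103958_g_at. Among non-blood globins the array held only Mb, myoglobin, at 26.7 or less on every array.

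No other marker of red cells was called higher beside the globins and Alas2. The defining red cell markers fixed for this check were on the array for 5 of 8 genes, with 8 probe sets, of which 4 were tested. In limma 0 of these 4 passed, and 1 had an unadjusted p under 0.05. That was the Ank1 probe set 100440_f_at, which was lower in the transgenic pools (log2 change -0.37). The other Ank1 probe sets had 0.09 and 0.17. Summed over the markers, intensity came to 2082.0 and 2255.2 in controls, against 1751.1 to 2012.5 in transgenic pools, most of it from Ank1, an ankyrin that neurons also express. Slc4a1, the anion exchanger of the red cell membrane, read 48.9 and 49.5 in controls against 26.1 and 41.6 in transgenic pools and was too dim to be tested. Both probe sets of Epb42 and that of Car1, the red cell carbonic anhydrase, were below the floor on all arrays. Rhag, part of the Rh complex, read 53.2 and 47.9 against 80.9 and 65.4, with both transgenic pools the higher ones but no pass (log2 change 0.53 ± 0.31 SE, limma adjusted p = 0.343). In the wider list of red cell membrane and red cell proteins, 0 of 9 tested probe sets rose and 1 fell, the actin-bundling protein Dmtn (1.37-fold, limma adjusted p = 0.0374, but 0.246 without control replicate 1, 0.118 without transgenic replicate 1 and 0.132 without transgenic replicate 2), and 2 had an unadjusted p under 0.05. Brain cells also express Dmtn, Prdx2 and Car2 of that list. Among 7 tested probe sets of erythroid regulators 3 had an unadjusted p under 0.05. Epor, the erythropoietin receptor, fell 1.74-fold (limma adjusted p = 0.0441) and Bach1 rose, while Gata1 and Klf1, which drive globin transcription in red cell precursors, read at most 84.7 and 70.2 on any array. Without any 1 of the 4 pools Epor did not pass, with adjusted p-values of 0.0558 to 0.189.

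**Figure D3:**
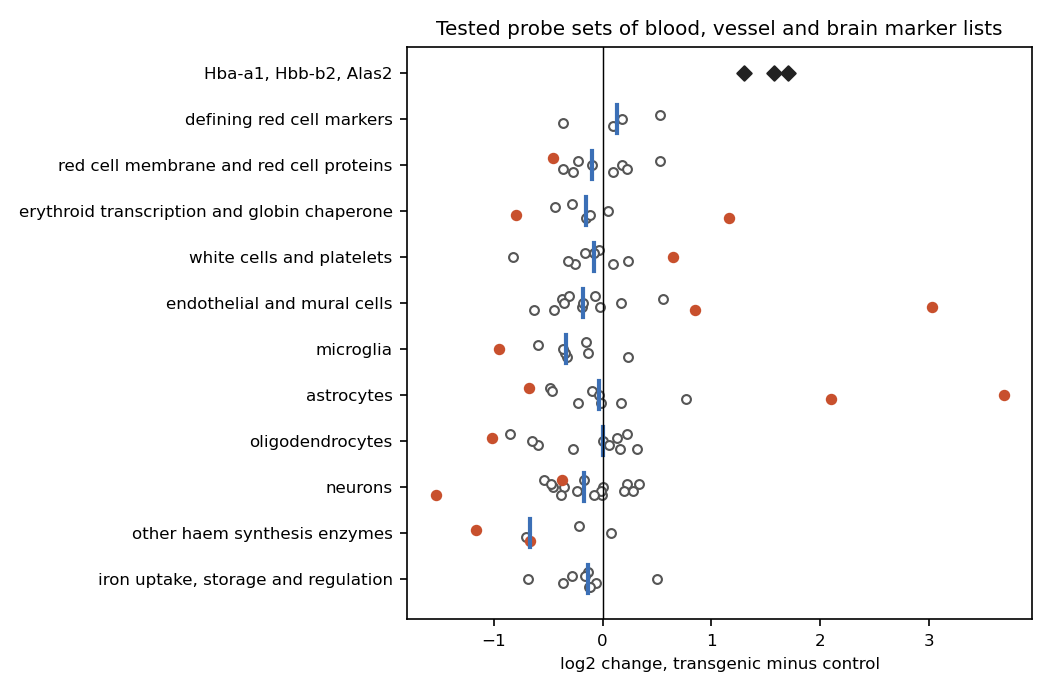
Log2 change, transgenic minus control, of each tested probe set in lists of blood, vessel, brain and iron genes, with Hba-a1, Hbb-b2 and Alas2 as diamonds on top. Orange points passed the threshold, open points did not, and the blue bar is the list's median. The diamonds lie at 1.30 to 1.70, and the only list points beyond them belong to Flt1 (3.03, against controls at the floor) and Aqp4 (2.10 and 3.69). The probe sets of these points lay under the filter in controls and were tested only because the transgenic pools were high.

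Markers of other blood cells were mostly dim. Of 46 probe sets for white cells and platelets, 20 lay at or below the floor on all arrays, among them all 3 of Ptprc, the pan-leukocyte phosphatase. The brightest, Coro1a, an actin-binding protein of white cells, read 671.9 and 664.2 in controls against 620.2 and 572.0 in transgenic pools. Of the 9 tested, 1 rose and 0 fell in limma, and 1 had an unadjusted p under 0.05. The rise was 1 of 16 probe sets of the immunoglobulin gene Ighm (93583_s_at, 1.57-fold, limma adjusted p = 0.0260), which did not pass without any 1 of the 4 pools (adjusted p = 0.0536 to 0.104). Summed over this list, intensity came to 2149.0 and 2367.8 in controls, against 1987.0 to 2323.7 in transgenic pools. None of the 10 probe sets for liver-made plasma proteins was bright enough to be tested, so 0 could be called. Of 13 tested probe sets for endothelial and mural cells of vessels, 2 rose and 0 fell, both being Flt1, a receptor for vascular growth factor, and 4 had an unadjusted p under 0.05. The log2 change of Flt1 was 0.85 at 98452_at (limma adjusted p = 0.0185, but 0.0788 and 0.101 without transgenic replicate 1 or 2). At 98453_at the control pools were both below the floor, and the log2 change of 3.03 was 1.66 with the floor at the 40th percentile, so its size depends on the floor. This probe set was tested only because the transgenic pools were high, so its call is no support for a rise of vessel markers. Neither Flt1 call held without transgenic replicate 1 or 2, where 98453_at fell under the filter and was not tested. The tight junction gene Cldn5 had 0.56 ± 0.17 SE (limma adjusted p = 0.0686), and the summed vessel signal was 2332.6 and 2397.0 against 2368.2 to 2638.2. The part of blood left in the tissue in the globin and Alas2 differences was not tested, and neither was that of transcripts made by brain cells.

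The tissue label was checked with cell markers. The summed intensity of neuronal genes was 33340.1 and 33463.0 in controls, against 28189.5 to 31014.6 in transgenic pools. Much of it came from Snap25, Eno2 and Tubb3, while Gad2 and Camk2a were dim, and Tbr1 of cortical projection neurons read 1317.5 or more. Gad1 was bright, at 2409.2 and 2549.3 in controls against 3035.8 and 3198.5 in transgenic pools. Its log2 change of 0.33 (limma adjusted p = 0.0846) did not pass, and 12 of the 17 tested neuronal probe sets lay below 0, against 54.2% of all tested probe sets. Choroid plexus genes were at most 86.8. Among neurons 0 of 17 tested probe sets rose and 2 fell (Snap25 and Camk2a). Among astrocytes 2 of 11 rose (both of Aqp4, the water channel of astrocyte endfeet, by 2.10 and 3.69 on the log2 scale) and 1 fell (S100b). Among oligodendrocytes 0 of 11 rose and 1 fell, which was 1 of the 4 probe sets of Mobp. Among microglia 0 of 8 rose and 1 fell (Tyrobp). Both Aqp4 probe sets lay under the filter of 49.4 in controls (35.1 and 35.4 at 102703_s_at, 36.7 and 47.5 at 102704_at). They were tested only because the transgenic pools were high, so their calls are no support for a rise of astrocyte markers. Camk2a averaged 47.05 in transgenic pools, under the filter, and was tested only through its controls. All calls of these 4 lists are from limma. In the 4 lists 6, 7, 3 and 3 probe sets had an unadjusted p under 0.05, against 24.3% of all tested probe sets. With 1 pool left out, the number of calls changed in each of the 4 lists for at least 1 pool and stayed for others. Neurons had 0 calls without transgenic replicate 1 and 1 without control replicate 2, and astrocytes 1 without transgenic replicate 2. Oligodendrocytes had 4 without control replicate 1 and 0 without transgenic replicate 1, and microglia 0 without transgenic replicate 2. Snap25 passed in none of these 4 fits and had a log2 change of -0.18 (limma adjusted p = 0.285) after quantile normalization.

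Some genes outside the set had profiles close to those of the globins. Likeness was the Euclidean distance between log2 values over the 4 arrays, each profile centred on its own mean, among 6742 tested single-gene probe sets. The nearest to the mean of Hba-a1 and Hbb-b2 were the phosphatase Dusp8 (distance 0.113), Gm15772 (0.129), the cochaperone Dnajb2 (0.139), the metal-responsive transcription factor Mtf1 (0.150) and Zfp612 (0.159), against a median distance of 1.72. Dusp8 read 144.7 and 138.6 in controls against 495.1 and 446.1 in transgenic pools. Alas2 lay at 0.427, and 0.697% of candidates were nearer than it was. Alas1, Hmox1 and the brighter Urod probe set lay at 1.89, 1.96 and 1.98. The nearest to Alas2 itself were Msl2 (0.137), the histone methyltransferase Kmt2a (0.211), Pip4k2c (0.218), Dusp16 (0.231) and Rnf149 (0.249). In controls Zfp612, Dusp16 and Msl2 averaged 31.9, 33.15 and 45.7, under the filter of 49.4, so they were candidates only through their transgenic pools. With 4 arrays in 2 groups the distance mostly reflects the size of the group difference.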

How the data were processed

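The authors deposited linear intensities, 1 for each probe set on each array; that unit was read from the values, since no header or label names it, and their tools are not stated in the sources used here. The columns had been brought to a common level before deposit (trimmed means 249.5 to 249.6, medians within 1.85%) and were used unchanged. Of 12488 probe sets, 66 controls were left out. The platform annotation, which is old, named a single gene for 10833, several for 396 and none for 1193. For 10817 of the single-gene probe sets the symbol was taken from RefSeq (GRCm38.p6), whether or not it changed. The gene set itself was chosen by the platform symbols. Values were floored at the 25th percentile (19.675), log2-transformed, and tested where the mean exceeded the 40th percentile with limma 3.58.1 (R 4.3.3), using eBayes with its trend option, two-sided, with Benjamini-Hochberg adjustment and a threshold of 0.05 (2 residual degrees of freedom plus a prior of 7.51). Folds are ratios of geometric means of floored values. The number of arrays limits precision; an exact permutation test of 2 against 2 cannot go below p = 0.333. The script was tested on simulated data. The gene set and all lists were chosen with earlier results of these data known. Named genes outside the set are the called members of each list, the 2 brightest of the haem, iron and glycolytic lists, markers a check turns on, and the 5 nearest profiles; the probe sets of several globin genes, Cpox, Cldn5, Rhag and other uncalled markers were named after their values were seen.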

Additional observations from a re-analysis of the deposited data

How the results depend on the processing

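Under 14 alternatives, 3 of the globin and haem probe sets passed in each except 2 with the filter at the 60th percentile (where Alas2 was not tested), 2 to 3 when 1 pool was left out, and 0 without the filter on dim probe sets. Over all probe sets 747 passed, 48 without that filter, 395 without the intensity trend and 389 to 745 when 1 pool was left out. Without the filter more probe sets enter that lie at the floor and have almost no variance; the cause of the lost calls was not tested. Changes near 0 turned sign when 1 pool was left out, with Bpgm at -0.029 to 0.20 and Hba-x at -0.087 to 0.20 on the log2 scale. The range of Hba-x leaves out the fit without transgenic replicate 1, in which it was under the filter and not tested. The replicate numbers in the titles are shared between groups, but deviations of same-numbered pools correlated at only 0.056 over tested probe sets, so the numbers were not taken as pairs. With the replicate number as a block 892 passed, and the calls of Hba-a1, Hbb-b2 and Alas2 held (adjusted p = 2.32e-06, 3.88e-06 and 0.00313). Median scaling and quantile normalization left the same 3 called. Signal over background limits Fech, Hbb-bh1 and Hbb-y, which could not be tested.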

Other observations

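Genes of the oxidative stress response, to which Hmox1 also belongs, were set beside it. Of 18 tested probe sets of 15 genes, 2 rose (the metallothionein Mt1 and the repressor Bach1) and 1 fell in limma, and 7 had an unadjusted p under 0.05, with a median log2 change of 0.03. The fall was Sod1, the cytosolic superoxide dismutase, which read 2655.4 and 2781.0 in controls against 1474.8 and 1194.1 in transgenic pools, a 2.05-fold difference (log2 change -1.03 ± 0.13 SE, limma adjusted p = 7.28e-04) that passed in 13 of 14 alternatives. Mt1, which binds zinc and copper, rose 1.52-fold (limma adjusted p = 0.0104, but 0.0634 without transgenic replicate 1). Srxn1, a target of the stress factor Nrf2, had a log2 change of 0.65 at 102780_at (limma adjusted p = 0.0512) and -0.18 at 161090_i_at. Nfe2l2, which encodes Nrf2, had -0.11.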
